A study of Homo sapiens with 4 samples.

Results

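The genes described here are 10 genes of MHC class II antigen presentation, namely the regulator CIITA, the invariant chain CD74, the DR chains HLA-DRA, HLA-DRB1 and HLA-DRB5, the DP chains HLA-DPA1 and HLA-DPB1, the DQ chain HLA-DQA1, and the DM chains HLA-DMA and HLA-DMB. They were chosen by name for their place in this pathway, out of 34241 gene identifiers in the count tables, and all 10 are listed for every condition. Transcripts were counted in single cells of A375, a human melanoma cell line whose BRAF gene has the V600E mutation, in 4 conditions that share it. S cells were untreated. RV cells were resistant to vemurafenib, an inhibitor of mutant BRAF. RVC cells were resistant to vemurafenib combined with cobimetinib, and RVT cells to vemurafenib combined with trametinib, both partners being inhibitors of MEK, the kinase activated by BRAF. The treated cultures had stayed on their drugs for 10 to 14 days at concentrations below the IC50, and the drugs were withdrawn 24 h before capture, so that these cells were measured off drug. Each condition was 1 culture of 1 cell line, captured as 1 droplet library from 10000 loaded cells. There is thus no replicate, the spread between cultures is unknown, and no difference between conditions could be tested.

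MHC class II molecules carry peptides from the endosomal pathway to the cell surface, where CD4+ T cells read them. Each molecule is a pair of an alpha and a beta chain of the DR, DP or DQ type. CD74, the invariant chain, fills the groove of a new pair and escorts it to the endosome, and HLA-DM, made of HLA-DMA and HLA-DMB, exchanges the remaining CD74 fragment for peptide. CIITA is the co-activator that switches these genes on, through RFX, CREB and NF-Y factors bound to the X and Y boxes of their promoters. Professional antigen-presenting cells express the genes constitutively, interferon gamma induces them in many other cells, and a part of melanomas expresses them without such a stimulus.

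The libraries differed in depth and in annotation. After filtering, S held 6334 cells, RV 4177, RVC 7623 and RVT 8445, with a median of 8807.5, 11553, 3959 and 2871 UMIs (unique molecular identifiers, which stand for single transcript molecules) per cell. Pairs of libraries shared 36 to 105 cell barcodes, at most 1.38% of the cells of a library. S and RV were counted with a list of 33694 genes, RVC and RVT with one of 33538. The log2 ratio to S fell with the GC content of a gene's last 500 transcript bases in RVC (Spearman correlation across 12962 genes -0.32) and RVT (-0.38), but not in RV (-0.00). Whatever sets RVC and RVT apart from S and RV can therefore not be told apart from these differences between libraries. Levels below are UMIs per 1000000 UMIs of the library (CPM). Intervals in brackets are exact 95% intervals, which cover counting error only. A count of 0 allows a level of up to 3 UMIs, which came to 0.0512 (S), 0.0573 (RV), 0.0910 (RVC) and 0.118 CPM (RVT).

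As a check of the labelled cell type, 10 melanoma and neural crest markers were read. They summed to 213, 94.5, 26.1 and 92.4 CPM in S, RV, RVC and RVT. The neural crest factor SOX10 stood at 86.3, 39.9, 0 (0 UMIs) and 19.4 CPM. MITF, with 9.78, 20.2, 8.13 and 41.3 CPM, and SOX9, with 3.94, 8.68, 14.3 and 13.6 CPM, did not follow it. None of the pigment genes PMEL, MLANA and TYR exceeded 0.439 CPM in any library. Of the 7 markers that reached 1 CPM, 5 (RV), 5 (RVC) and 4 (RVT) were at least 2-fold below S. The shares of all genes were 3.27%, 22.8% and 21.7%. At least 2-fold above S were 2, 1 and 2, against 3.89%, 25.1% and 35.9%. The defining immune markers PTPRC, MS4A1, TYROBP and CD3E had 0 UMIs in all 4 libraries. The 12 immune markers summed to 37.7 (S), 74.7 (RV), 167 (RVC) and 66.3 CPM (RVT), most of it the lysosomal gene CD68. In RVC, 2 of the 3 that reached 1 CPM in it or S were at least 2-fold above S (25.1% of all genes were), CD68 at 4.34-fold and FCER1G, an Fc receptor subunit, at 12.5-fold, with 0.990, 1.76, 12.3 and 0.0787 CPM in S, RV, RVC and RVT. The 6 fibroblast markers summed to 2.56, 2.23, 167 and 43.1 CPM, led by COL3A1 in RVC and LUM in RVT, and their part in the values below was not tested.

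Of the members, 8 lie on chromosome 6, CD74 lies on chromosome 5 and CIITA on chromosome 16. In GRCh38 (GENCODE 29), HLA-DRA spans chr6:32439842-32445046 on the plus strand, HLA-DRB5 chr6:32517343-32530287 and HLA-DRB1 chr6:32578769-32589848, both on the minus strand, and CD74 spans chr5:150401637-150412929 on the minus strand. HLA-DRB1 and HLA-DRB5 are close copies: 90.6% of 425 aligned bases are identical between the last 500 bases of their transcripts, the part that such libraries read. How the authors' counting divided reads between them is not known, and their split is uncertain, so that their sum is also given. HLA-DPA1 and HLA-DPB1 overlap on opposite strands, and HLA-DMA and HLA-DMB overlap AL645941.2 on their own strand.

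Because the DR beta genes showed the lowest levels relative to S, the 250 bases before their RefSeq starts are shown (GRCh38.p14, minus strand, 5′ to 3′). HLA-DRB1 covers chr6:32589849-32590098 and HLA-DRB5 chr6:32530288-32530537. Capitals mark 2 motifs, the X box core AGCAAC and the Y box core GATTGG.
HLA-DRB1: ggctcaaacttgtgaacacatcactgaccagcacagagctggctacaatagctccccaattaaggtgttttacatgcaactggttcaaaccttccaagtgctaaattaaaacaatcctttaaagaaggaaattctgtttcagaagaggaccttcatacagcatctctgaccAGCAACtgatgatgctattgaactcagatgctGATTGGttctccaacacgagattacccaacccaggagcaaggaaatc
HLA-DRB5: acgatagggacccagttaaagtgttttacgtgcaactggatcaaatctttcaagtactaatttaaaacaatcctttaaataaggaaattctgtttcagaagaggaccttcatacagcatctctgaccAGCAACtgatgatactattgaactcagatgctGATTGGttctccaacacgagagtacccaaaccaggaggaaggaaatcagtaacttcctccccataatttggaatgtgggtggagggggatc
In both sequences the X core begins 32 bases before the Y core, at 79 and 47 bases before the start of HLA-DRB1 and at 123 and 91 bases before that of HLA-DRB5. Over 206 aligned bases, 91.7% are identical. Of the members, 8 matched the RefSeq table by symbol, with 9 starts. On either strand AGCAAC occurred before a start of 4 of them (HLA-DMA, HLA-DPA1, HLA-DRB1 and HLA-DRB5) and in 10.3% of all 35116 sequences of that length. GATTGG occurred in 5 (HLA-DMA, HLA-DMB, HLA-DPB1, HLA-DRB1 and HLA-DRB5) against 14.1%, and both motifs in 3 against 1.48%. Of those 3, HLA-DMA had them 136 bases apart, against 32 in HLA-DRB1 and HLA-DRB5. The X2 box TGCGTCA was in none of the 8 members and in 2.09% of all. These matches describe letters in a window and were not tied to the levels that follow.

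Together the 10 genes made up 1109 CPM of the untreated library and 381 (RV), 318 (RVC) and 736 CPM (RVT) of the treated ones, with CD74 as the main contributor in each library. In RV, 7 of the 10 were at least 2-fold below S, against 3.27% of the 12392 genes that reached 1 CPM in either library, and none was 2-fold higher, against 3.89%. The median log2 ratio of the members was -1.90, and that of all genes 0.02. In RVC, 6 of the 10 were at least 2-fold below S, where 22.8% of 12978 genes were, and none was higher, against 25.1%. The medians were -1.68 for the members and 0.23 for all genes. In RVT, 3 of the 10 were at least 2-fold below S (HLA-DRB1, HLA-DRB5 and CIITA), a share near the 21.7% of 13354 genes. HLA-DMA was higher, as were 35.9% of all genes. The median of the members was -0.70, that of all genes 0.46. The RVT count depended on the scaling: 8 members were at least 2-fold lower after TMM scaling, where 30.4% of 13223 genes were, and 7 after centring on the median gene, where 28.6% of all genes were. In thinned cells (each reduced to 1500 UMIs at random) it was 5, against 21.8% of all genes, and after centring on genes of like GC content 8, against 25%. CD74, HLA-DPA1, HLA-DPB1 and HLA-DMB joined them after TMM scaling and after centring on the median gene, HLA-DQA1 after TMM scaling, and HLA-DMA was in those cases less than 2-fold higher, at a log2 ratio of 0.81 and 0.87.

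**Figure D1:**
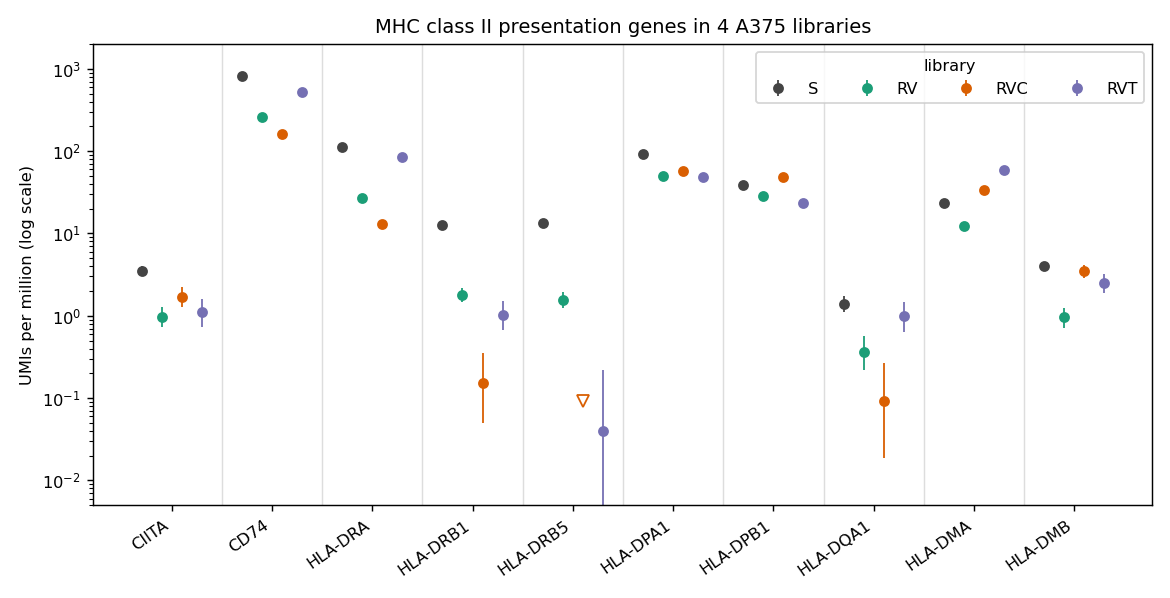
Level of each member in the 4 libraries, in UMIs per 1000000 UMIs (CPM) on a log axis. Points are libraries, bars are exact Poisson 95% intervals (counting error only), and the open triangle is the level that 0 UMIs of HLA-DRB5 in RVC allow. At this scaling CD74 and HLA-DRA in RVT are less than 2-fold below S (516 against 808 and 84.7 against 111). So are HLA-DPA1, HLA-DPB1, HLA-DQA1 and HLA-DMB, while HLA-DRB1 and HLA-DRB5 lie far below S. Under other scalings CD74 and HLA-DRA pass 2-fold (log2 ratios -1.16 after TMM scaling and -1.07 after centring on genes of like GC content).

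CIITA, the regulator of the pathway, was a rare transcript. S, RV, RVC and RVT held 205, 51, 56 and 28 of its UMIs, or 3.50, 0.973, 1.70 and 1.10 CPM. It was lower than in S in all 3 treated libraries, by 3.59-fold in RV (2.63 to 4.98), 2.06-fold in RVC (1.53 to 2.82) and 3.17-fold in RVT (2.13 to 4.89). The log2 ratio in RV was -1.85 and ranged from -3.76 in thinned cells, where RV held 2 CIITA UMIs, to -1.19 with a pseudocount. The RVC value was under 2-fold with all barcodes, without doublet removal and with a pseudocount (log2 ratios -0.98, -0.998 and -0.74). RVT and RVC could not be separated at this depth, their 1.54-fold difference having an interval of 0.963 to 2.52. CIITA thus stood lower in RVT than in S by more than its target HLA-DRA did, and the CIITA UMIs per 100 HLA-DRA UMIs numbered 3.15 (S), 3.61 (RV), 13.1 (RVC) and 1.30 (RVT).

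CD74, the invariant chain, was measured with the most UMIs. S cells held 808 CPM of it (801 to 815). RV cells held 257 CPM (253 to 261), RVC cells 162 CPM (157 to 166) and RVT cells 516 CPM (507 to 525). The order was S, RVT, RV and RVC, and no intervals overlapped. Relative to S, CD74 was 3.14-fold lower in RV, 5.00-fold lower in RVC and 1.57-fold lower in RVT, and RVT was 3.19-fold above RVC. Against the median gene, whose log2 ratio of RVT to S was 0.46, the RVT value of CD74 was -1.11 on the log2 scale.

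HLA-DRA, the nearly invariant alpha chain of all DR molecules, followed the same order. Untreated cells held 111 CPM of it (109 to 114). The treated libraries held 27.0 CPM (RV, 25.6 to 28.4), 13.0 CPM (RVC, 11.8 to 14.3) and 84.7 CPM (RVT, 81.2 to 88.4). The RVT level was 1.31-fold below S (1.25 to 1.38) and 6.52-fold above RVC (5.88 to 7.25), whereas RV was 4.12-fold and RVC 8.57-fold below S. Relative to the median gene the log2 ratio of RVT to S was -0.85, and relative to genes of like GC content it was -1.07, while that of CD74 was then -0.20.

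The DR beta chains, which pair with HLA-DRA, were not near their S level in RVT. HLA-DRB1 had 733, 94, 5 and 26 UMIs in the order S, RV, RVC, RVT, or 12.5, 1.79, 0.152 and 1.02 CPM. HLA-DRB5, a further DR beta gene that a part of human haplotypes carries, had 777, 82, 0 and 1 UMIs, or 13.3, 1.57, 0 and 0.0394 CPM. Both were nearly equal in S and RV, and only HLA-DRB1 was above the limit of 3 UMIs in RVC and RVT.

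HLA-DRB1 was 6.97-fold below S in RV (5.62 to 8.73), 82.5-fold in RVC (35.2 to 255) and 12.2-fold in RVT (8.27 to 18.8). It was 6.75-fold higher in RVT than in RVC (2.55 to 22.5), from 26 and 5 UMIs. HLA-DRB5 was 8.47-fold below S in RV. In RVC it was at least 146-fold lower with 3 UMIs in place of 0, or 118-fold by the exact interval. In RVT the ratio of 337 (60.3 to 13321) rests on 1 UMI, which is under the limit of 3 UMIs. RVC and RVT could therefore not be ordered for HLA-DRB5. The sizes of these ratios depended on the processing, their direction did not. The log2 ratio of HLA-DRB1 to S ranged over the alternatives from -2.86 to -2.17 in RV, from -6.89 to -3.55 in RVC and from -4.13 to -2.74 in RVT, and that of HLA-DRB5 from -3.15 to -2.46 in RV and from -8.91 to -3.78 in RVT. The bound for HLA-DRB5 in RVC, set by 3 UMIs in place of 0, lay between -7.42 and -3.83, at -5.83 in thinned cells. Its RVT value in thinned cells, -5.91, is also such a bound, from 0 UMIs. The smallest ratios in RVC and RVT came from a pseudocount of 1 CPM. The ratio of HLA-DRB1 in RVT over RVC was close to that of HLA-DRA, at a level far below S.

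**Figure D2:**
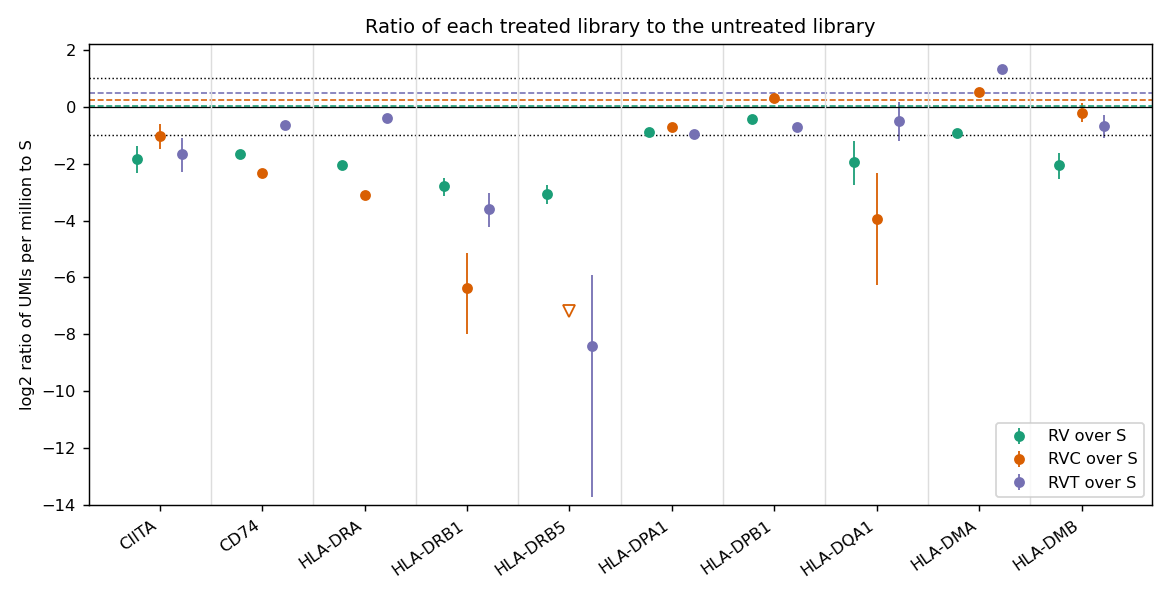
Log2 ratio of each treated library to S for the 10 members, with exact 95% intervals of counting error, the open triangle being the bound for HLA-DRB5 in RVC. Dotted lines mark 2-fold, and dashed lines the median of all genes (0.02 in RV, 0.23 in RVC, 0.46 in RVT). HLA-DRB1 and HLA-DRB5 are the lowest in RVT, at -3.61 and -8.40, with HLA-DRA at -0.39.

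The balance between DR chains is free of the scaling of the libraries, but not of a trend with GC content or of their different gene lists. Per 100 HLA-DRA UMIs, the DR beta genes together had 23.2 UMIs in untreated cells (21.9 to 24.5) and 12.5 in RV cells (10.6 to 14.6). RVC cells had 1.17 (0.377 to 2.75), and RVT cells 1.25 (0.825 to 1.83). The intervals of RVC and RVT overlapped despite their 6.52-fold difference in HLA-DRA, and both lay below S and RV. Other ratios between members differed from S as well. HLA-DPB1 had 41.2, 56.1, 84.6 and 49.0 UMIs per 100 HLA-DPA1 UMIs in S, RV, RVC and RVT. HLA-DMB had 17.1, 7.72, 10.3 and 4.24 per 100 HLA-DMA. HLA-DRA had 13.8, 10.5, 8.03 and 16.4 per 100 CD74, and HLA-DMA 2.88, 4.81, 20.8 and 11.3. After centring on genes of like GC content, the RVT log2 ratios to S were -1.07 for HLA-DRA, -0.20 for CD74 and -3.77 for HLA-DRB1. HLA-DRA per CD74 was then lower in RVT than in S, while HLA-DRB1 was still further below S than HLA-DRA.

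**Figure D3:**
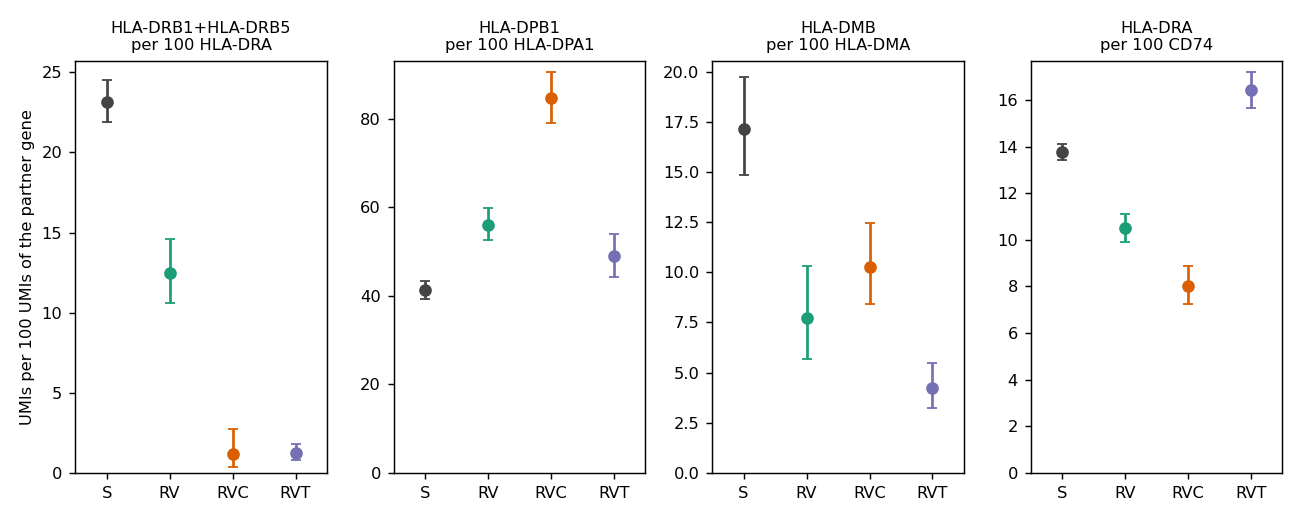
UMIs of 1 gene per 100 UMIs of its partner in each library, with exact 95% intervals of counting error. The DR beta genes per 100 HLA-DRA drop from 23.2 in S to 1.17 in RVC and 1.25 in RVT, while HLA-DPB1 per 100 HLA-DPA1 is lowest in S at 41.2 and highest in RVC at 84.6.

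Within cells, the same UMIs were counted again, using all UMIs of each cell. The cells were grouped by HLA-DRA, so the shares are a description and no further support. In S, 294, 614 and 427 of the 1510 DR beta UMIs lay in cells with 1, 2 to 4 and 5 or more HLA-DRA UMIs. In RVT these were 6, 6 and 0 of 27. Among cells with 2 to 4 HLA-DRA UMIs, 35.2% of 1187 S cells also held a DR beta UMI (32.5 to 38.0). For RV this was 18.8% of 234 cells (14.0 to 24.4), for RVC 1 of 32 cells, and for RVT 1.84% of 326 cells (0.678 to 3.96). Among cells with 5 or more, it was found in 58.3% of 345 S cells and 50% of 56 RV cells. RVT had 7 such cells, with 0 DR beta UMIs, which allows a share of up to 42.9%. Among cells with exactly 1 HLA-DRA UMI, the share was 19.7% of 1086 S cells (17.4 to 22.2) and 0.435% of 1378 RVT cells (0.160 to 0.945). The RVT cells were shallower, with a median of 2871 against 8807.5 UMIs over all cells of the library.

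Both DP chains were within 2-fold of S in the treated libraries, HLA-DPA1 in RVT only just. HLA-DPA1, the DP alpha chain, stood at 93.2, 50.4, 56.6 and 47.9 CPM (S, RV, RVC, RVT). HLA-DPB1, the DP beta chain, stood at 38.4, 28.3, 47.9 and 23.5 CPM. HLA-DPA1 was 1.85-, 1.65- and 1.95-fold lower in RV, RVC and RVT, and HLA-DPB1 was 1.36-fold lower, 1.25-fold higher and 1.64-fold lower, its RVC value turning to a log2 ratio of -0.13 after centring on genes of like GC content. The RVT ratio of HLA-DPA1, -0.96 on the log2 scale (-1.05 to -0.87), passed 2-fold under several alternatives, at -1.004 (all barcodes) to -1.48 (TMM scaling). That of HLA-DPB1, -0.71, passed it at -1.23 (TMM scaling), -1.17 (median gene) and -1.50 (genes of like GC content). HLA-DPB1 was the 1 member at least 2-fold lower in RVT than in RVC, by 2.04-fold (1.86 to 2.25), where 12.8% of 13204 genes were. It fell just short of 2-fold without ribosomal protein and mitochondrial genes, in thinned cells and with a pseudocount (log2 ratios -0.92, -0.98 and -0.999). In that comparison CD74, HLA-DRA and HLA-DRB1 were at least 2-fold higher, 3 of the 8 members that reached 1 CPM (all but HLA-DRB5 and HLA-DQA1), against 23.5% of all genes. HLA-DRB1 was no longer among them with a pseudocount of 1 CPM, at a log2 ratio of 0.81, nor after TMM scaling or in thinned cells (0.877 CPM in RVT), where it was under 1 CPM in both. In thinned cells HLA-DQA1 took its place in the count, at a log2 ratio of 2.04 against a library with 0 UMIs. The medians were 0.28 for those members and 0.31 for all genes.

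HLA-DQA1, a DQ alpha chain, was near the limit of detection. Its UMIs numbered 82, 19, 3 and 25 in S, RV, RVC and RVT, or 1.40, 0.363, 0.0910 and 0.984 CPM. It was 3.86-fold below S in RV (2.32 to 6.73) and 15.4-fold in RVC (5.08 to 76.1), while the RVT difference of 1.42-fold had an interval of 0.899 to 2.32. These values depended on the processing. In thinned cells the log2 ratios were -0.21 in RV and 0.63 in RVT, with 0 UMIs left in RVC, and with a pseudocount of 1 CPM the RV ratio was -0.82. In RVT it was -1.02 after TMM scaling and -1.50 after centring on genes of like GC content. Its partner HLA-DQB1, which is not among the 10, had 679, 34, 10 and 13 UMIs and was 17.9-fold, 38.2-fold and 22.6-fold below S. There were 828 HLA-DQB1 UMIs per 100 HLA-DQA1 in S (658 to 1054) and 52 in RVT (24.4 to 106). HLA-DQA2, whose last 500 transcript bases match HLA-DQA1 at 86.2% of 426 aligned bases, had 1.25, 0.439, 0.121 and 2.16 CPM, and a split of reads between them is uncertain.

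For the peptide editor, the alpha chain was highest in RVT. HLA-DMA was read at 23.3 CPM in untreated cells (22.1 to 24.6) and 12.4 CPM in RV cells (11.4 to 13.4). RVC cells held 33.6 CPM (31.7 to 35.7), and RVT cells 58.5 CPM (55.6 to 61.5). RVT was 2.51-fold above S (2.33 to 2.70), the only member at least 2-fold higher than S in any library, and RVC was 1.44-fold above it. HLA-DMB, its partner, stood at 3.99, 0.954, 3.46 and 2.48 CPM, 4.18-fold below S in RV (3.07 to 5.80) and 1.61-fold in RVT (1.21 to 2.16). Its RVT log2 ratio of -0.69 passed 2-fold in thinned cells (-1.35) and after TMM scaling (-1.20). It did so too after centring on the median gene (-1.15) and on genes of like GC content (-1.36). In RVC the HLA-DMB interval of 0.919 to 1.46 around 1.15-fold lower spans no change. HLA-DMA stayed above its S level in RVT under each alternative tried, at a log2 ratio of 0.81 to 1.33.

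Since deeper cells show more genes, shares of cells with a transcript were also taken after drawing 1500 UMIs from each cell (thinned cells), which kept 6334 S, 4177 RV, 7226 RVC and 7600 RVT cells. CD74 was detected in 82.6% of S, 68.5% of RV, 42.8% of RVC and 68.6% of RVT cells with all UMIs, and in 53.0% (51.7 to 54.2), 24.8% (23.5 to 26.2), 20.7% (19.8 to 21.6) and 50.6% (49.5 to 51.7) of thinned cells. HLA-DRA was detected in 41.3%, 15.5%, 5.13% and 20.3% of cells, and in 14.7%, 4.24%, 1.85% and 11.2% of thinned cells. With 1500 UMIs per cell, RVT was closer to S than RV and RVC were, for both genes, in the cells deep enough to be thinned. HLA-DPA1 was found in 12.8%, 7.45%, 8.23% and 6.83% of thinned cells, HLA-DPB1 in 4.99%, 4.12%, 6.82% and 3.49%, and HLA-DMA in 3.69%, 2.13%, 4.98% and 8.75%. HLA-DRB1 was found in 1.86%, 0.407%, 0.0277% and 0.132%.

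The culture has no second cell type known to be without class II transcripts, so the level of free RNA in the droplets could not be read from such cells. The nearest value comes from barcodes with fewer than 500 genes, which only RVC and RVT had. There CD74 stood at 82.8 CPM (56 UMIs) in RVC and 244 CPM (209 UMIs) in RVT, and HLA-DRA at 8.87 CPM (6 UMIs) and 60.6 CPM (52 UMIs). HLA-DRB1 and HLA-DRB5 had 0 UMIs there. The part of free RNA in the shares of cells was not tested.

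Although S and RVT had similar shares of CD74-positive cells, the transcripts were spread differently over them. A thinned S cell held 1.31 CD74 UMIs on average with a variance 2.68 times the mean, and an RVT cell 0.774 with a variance 1.20 times the mean. The corresponding ratios were 3.02 in RV and 1.10 in RVC, a ratio of 1 being that of counting alone. The highest CD74 count in a thinned cell was 28 (S), 24 (RV), 4 (RVC) and 7 (RVT). Cells with 5 or more CD74 UMIs made up 6.13% of S, 1.58% of RV, 0% of RVC (0 of 7226 cells, which allows a share of up to 0.0415%) and 0.42% of RVT. They held 30.7% of the CD74 UMIs in S, 23.0% in RV and 2.89% in RVT. S and RV thus contained cells with very high CD74. In RVC and RVT the spread was nearer to that of counting alone but above it, with ratios of 1.10 and 1.20. The means there were 0.243 and 0.774 UMIs. The RVT mean was above the 0.471 of RV. Because the variance over the mean also nears 1 as the mean falls, these ratios do not show that the cells were alike.

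In S and RV the levels of HLA-DRA, HLA-DPA1 and HLA-DMA were highest in these cells, although the more numerous cells with 3 to 4 CD74 UMIs held more HLA-DRA UMIs in all (338 against 273 in S and 71 against 38 in RV). HLA-DRA went from 33.1 CPM in S cells without a CD74 UMI to 469 CPM in those with 5 or more, and from 10.2 to 384 CPM in RV. In RVT it went from 68.7 to 229 CPM, the latter from 11 UMIs in 32 cells, and in RVC from 11.5 CPM without CD74 to 39.2 CPM at 3 to 4 CD74 UMIs, from 2 UMIs. Thinned RVT cells with 0 CD74 UMIs thus had more HLA-DRA than such S cells, and RVT cells with 5 or more had less. The classes of 0 need not be alike in S and RVT. If all cells of a library had the same mean, counting alone would leave 46.1% of RVT cells at 0 where 49.4% were. For S cells these shares were 27.0% and 47.0%. An equal mean in all cells is not shown. How many cells of either class had their CD74 missed by sampling was not tested. HLA-DRA stood at 60.6 CPM in RVT barcodes with fewer than 500 genes, which S lacked, and the part of free RNA was not tested.

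**Figure D4:**
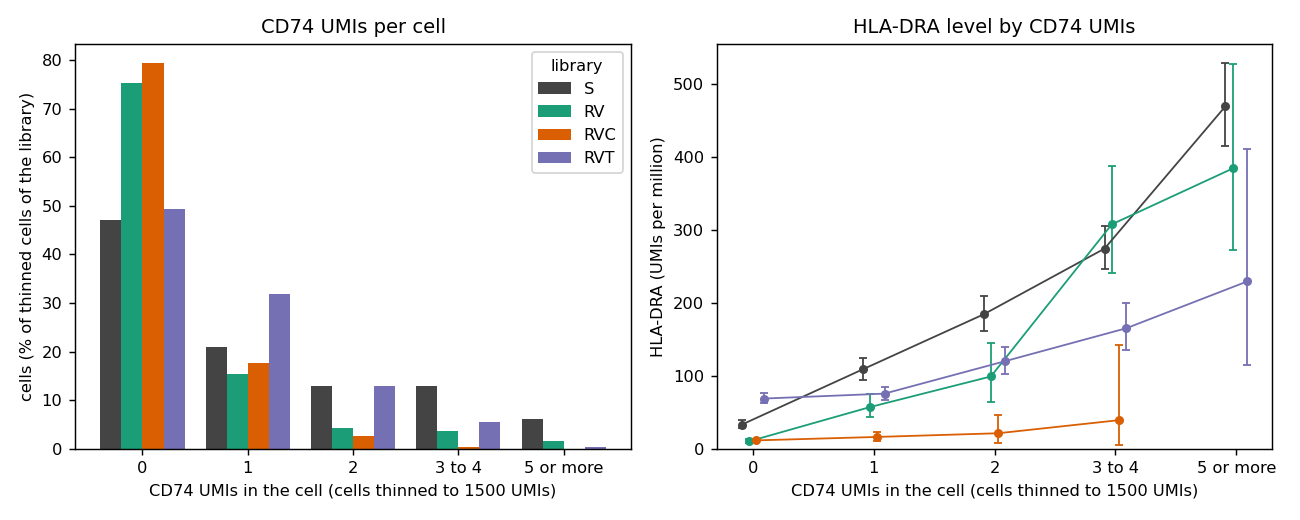
Left, thinned cells of each library by their number of CD74 UMIs, as a percentage of the library's cells. Right, the HLA-DRA level in the same classes of at least 20 cells, with exact Poisson 95% intervals. HLA-DRA climbs with CD74 from 33.1 to 469 CPM in S and from 10.2 to 384 in RV, less steeply from 68.7 to 229 in RVT. In RVC it goes from 11.5 CPM to 39.2 CPM at 3 to 4 CD74 UMIs, the latter from 2 UMIs.

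HLA-DPA1 went from 45.2 to 275 CPM between the same classes in S and from 30.8 to 333 in RV. In RVT it was 44.6 CPM without CD74, 61.9 CPM at 3 to 4 CD74 UMIs and 41.7 CPM at 5 or more, the last from 2 UMIs, and in RVC 56.2 and 58.8 CPM, the last from 3 UMIs. HLA-DMA went from 12.8 to 60.1 CPM in S and from 8.70 to 121 in RV, against 61.1, 76.2 and 104 CPM in RVT at 0, at 3 to 4 and at 5 or more, the last from 5 UMIs. HLA-DRB5 went from 3.58 to 75.6 CPM in S. These cells were picked by CD74 and share a library, so the values describe the libraries and are no test.

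Co-detection gave the same picture. Of thinned cells with an HLA-DRA UMI, 85.4% had a CD74 UMI in S (83.0 to 87.6). This share was 76.3% for RV (69.3 to 82.3), 28.4% for RVC (20.9 to 36.8, 134 cells) and 59.2% for RVT (55.8 to 62.5). Among cells without HLA-DRA the shares were 47.4%, 22.6%, 20.5% and 49.5%. The gap was wide in S and RV and small in RVC and RVT. HLA-DPA1 was found in 26.6% of HLA-DRA cells against 10.5% of the others in S and in 23.2% against 6.75% in RV, but in 9.70% against 8.21% in RVC and 8.58% against 6.61% in RVT. In cells with HLA-DMA, CD74 was found in 76.5% against 52.1% of the others in S and in 51.1% against 50.6% in RVT.

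CD74 was enriched in thinned cells with an HLA-DRA UMI in each library. Its level there over that in the other cells was 2.68-fold in S (2.55 to 2.80), 6.32-fold in RV (5.67 to 7.04), 1.46-fold in RVC (1.07 to 1.94) and 1.45-fold in RVT (1.35 to 1.56). HLA-DPA1 was 2.76-fold higher in the HLA-DRA cells of S, 3.96-fold in RV, 1.19-fold in RVC (0.644 to 2.00) and 1.30-fold in RVT (1.01 to 1.66). HLA-DRB1 was 3.34-fold higher in S (2.26 to 4.89), while its RVT ratio of 3.40 rests on 3 and 7 UMIs (0.567 to 14.9). Among genes with at least 50 CPM over all thinned cells of a library, the furthest enriched were HLA-DPA1 and CD74 in S, followed by RAMP1, HLA-B and SLC26A2 at 1.81- to 1.92-fold. In RV, CD74 was followed by SLC26A2 at 5.19-fold, SAT1 at 4.74-fold, HLA-DPA1 and SPARC. In RVT, CD74 came next after ST8SIA4 at 1.52-fold and NAMPT at 1.45-fold, and in RVC no member was among the first 5, which were led by MMP3 at 2.33-fold. Taking the minimum of 50 CPM in the HLA-DRA cells alone lets a gene enter because it is high there, and FDCSP (6.27-fold) and HLA-DRB5 (5.64-fold) in S and S100B (9.99-fold) in RV led by that rule. These cells were chosen by HLA-DRA and share a library, so the values are a description.

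SOX10-positive cells had higher HLA-DRA and CD74 levels in S and RV. In S, HLA-DRA was at 190 CPM in the 796 thinned cells with a SOX10 UMI and 117 CPM in the others (1.62-fold, 1.40 to 1.87), and CD74 at 1249 and 819 (1.53-fold, 1.44 to 1.61). In RV, HLA-DRA was at 90.0 and 34.9 CPM (2.58-fold, 1.72 to 3.76) and CD74 at 737 and 288 (2.55-fold, 2.23 to 2.91), from 237 cells with SOX10. In RVT, with 198 such cells, HLA-DRA was at 108 and 82.9 CPM (1.30-fold, 0.884 to 1.85) and CD74 at 545 and 515 CPM (1.06-fold, 0.900 to 1.24), so that neither difference exceeded its counting error. RVC had no SOX10 UMI.

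Genes whose ratios to S in RV, RVC and RVT came nearest to those of CD74, by Euclidean distance of log2 ratios among 6504 genes, were LMO4 (0.55), CADM1 (0.78), FCGR2A (0.80), HLA-DRA (0.91) and RDX (0.95). Nearest to HLA-DRA were FCGR2A (0.85), CD74 (0.91), ID1 (1.12), ID3 (1.24) and CADM1 (1.33). FCGR2A had 39.6, 16.8, 5.34 and 33.0 CPM in S, RV, RVC and RVT. With 4 libraries these are descriptions of a shared shape.

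Among 13 transcription factors of the class II promoters and genes of the interferon gamma pathway, none was 2-fold lower or higher in RV, where 3.27% of all genes were lower and 3.89% higher. In RVC, 2 were lower and 2 higher (22.8% and 25.1% of all genes), and in RVT 2 were lower and 4 higher (21.7% and 35.9%). With lists this short, these counts lie near the shares over all genes, and the difference from the members was not tested. JAK2, a kinase of the interferon gamma receptor, was 5.00-fold above S in RVT. RFXANK, a subunit of the RFX complex on the X box, stood at 59.4, 60.3, 29.2 and 12.1 CPM in S, RV, RVC and RVT, 4.92-fold below S in RVT. The other subunits of that complex, RFX5 and RFXAP, were 1.72-fold and 1.91-fold above S in RVT. NFYC, a subunit of the Y box factor NF-Y, was 3.55-fold below S in RVC and 2.39-fold in RVT. The other NF-Y subunits NFYA and NFYB were 1.76-fold and 2.29-fold above S in RVT. The listed factor IRF2 was 3.56-fold above S in RVT. The median log2 ratios of this list were 0.02, 0.36 and 0.82 in RV, RVC and RVT.

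Of 11 processing genes, most of which cut antigen and CD74, 10 reached 1 CPM in the comparisons with S. None was lower and 1 higher in RV (IFI30, a lysosomal thiol reductase, 2.24-fold), against 3.27% and 3.89% of all genes, 3 were lower and 2 higher in RVC, and 2 were lower and 2 higher in RVT. In RVC and RVT these counts lie near the shares over all genes, which were 22.8% lower and 25.1% higher in the former and 21.7% and 35.9% in the latter. The lysosomal protease CTSH was the furthest from S in RVC and RVT, with 13.4, 14.8, 0.849 and 1.06 CPM. CTSS, the protease that trims CD74 in antigen-presenting cells, had 6.47, 3.91, 18.0 and 4.76 CPM. Among 7 ligands and partners of CD74, 4 reached 1 CPM in the comparisons of RV and RVC with S, and 5 in that of RVT. In RV 0 were lower and 0 higher (3.27% and 3.89% of all genes). In RVC 2 were lower and 0 higher (22.8% and 25.1%), and in RVT 2 were lower and 2 higher (21.7% and 35.9%). The 2 lower ones were its ligands MIF and DDT in both doubly treated libraries. MIF had 542, 704, 22.3 and 20.2 CPM, and DDT 260, 225, 23.1 and 35.7 CPM. MARCH1, a ligase that removes class II from the surface, had 0.461, 0.993, 0.334 and 3.70 CPM, 8.03-fold above S in RVT.

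Of the class I pathway, which presents cytosolic peptides, 5 genes were followed. They summed to 1086, 1269.8, 3613 and 4573 CPM in the order S, RV, RVC, RVT, and none was 2-fold lower in the treated libraries, where 3.27% (RV), 22.8% (RVC) and 21.7% (RVT) of all genes were. In RVT, HLA-B was 5.41-fold and the light chain B2M 4.31-fold above S, while HLA-C, TAP1 and NLRC5 were 1.61-fold, 1.70-fold and 1.93-fold above it. The log2 ratios of HLA-C, TAP1 and NLRC5 were 0.69, 0.77 and 0.95, where the median gene stood at 0.46. The 2 genes past 2-fold in RVT compare with 35.9% of all genes. In RVC the same 2 were past 2-fold, HLA-B at 3.75-fold and B2M at 3.49-fold above S, against 25.1% of all genes. HLA-C was there 1.09-fold lower.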

How the data were processed

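Single-cell transcriptomes of A375 cells were analysed in 4 conditions with a single library for each condition. Per the labels, the authors used 10x Genomics Chromium v2 chemistry, demultiplexed with bcl2fastq 2.20.0.422 and counted with Cell Ranger against GRCh38, as the submitters' processing notes name them, and deposited UMI counts as whole numbers for each gene and barcode, not normalized. The annotation and the Cell Ranger version are not given in the sources used here. The deposited tables list 6695 (S), 4328 (RV), 9266 (RVC) and 10427 (RVT) barcodes.

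Barcodes with at least 500 genes and at most 20% mitochondrial UMIs were kept. Doublet scores came from scrublet in scanpy 1.11.5. Its own threshold called 5, 1, 1 and 0 barcodes, so those with the highest scores were removed at 0.8% per 1000 barcodes instead (359, 150, 687 and 870). UMIs were summed per library and scaled to CPM. A member or gene counted as lower or higher at 2-fold or more, where the higher of the compared libraries had 1 CPM or more. Intervals at 95% are Poisson (CPM), conditional binomial (ratios) and Clopper-Pearson (shares). A gene with 0 UMIs was taken at 3 UMIs, and a share of 0 is given with the limit that 3 cells set in place of an interval. Members named were all 10. Of each pathway list up to 3 genes were named, with exceptions chosen after their values were seen. These were all 5 of class I and, for transcription, IRF2 and the other RFX and NF-Y subunits. Of the marker lists, defining markers and genes that stood out were named. Also named were the 5 genes most like CD74 and HLA-DRA (mean over libraries of 10 CPM or more). The last were the 5 most enriched in HLA-DRA cells (50 CPM or more there or, chosen after seeing the data, over all cells). Members, lists and rules were chosen with earlier results of these data known. Some genes of the class I and transcription lists are not reported here and were left out of the counts and sums of these lists. Software was python 3.11.15, numpy 2.4.6, pandas 2.3.3, scipy 1.17.1, biopython 1.88, matplotlib 3.10.9, and edgeR 4.0.16 in R 4.3.3 for TMM factors. The calculations were tested on simulated counts. Gene positions came from GENCODE 29 and sequences from RefSeq.

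Alternatives were other cell filters, no doublet removal, TMM scaling, totals that leave out ribosomal protein and mitochondrial genes, equal weight per cell, thinned cells, a pseudocount, no filter on low values, the sum of the DR beta genes, centring on the median gene and, chosen after seeing the data, centring within 10 classes of GC content.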

Additional observations from a re-analysis of the deposited data

How the results depend on the processing

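Members at least 2-fold below S numbered 7 (RV), 6 (RVC) and 3 (RVT) of 10, against 3.27%, 22.8% and 21.7% of all genes. The first 2 counts stayed between 5 and 7 under every alternative. In RVT the count was 5 in thinned cells, 8 with TMM scaling and 7 after centring on the median gene. It was 8 after centring within classes of GC content, an alternative chosen after seeing the data. The shares of all genes were 21.8%, 30.4%, 28.6% and 25% in these settings, and were not taken for the other alternatives. The RVT count was 2 to 4 under those other alternatives. The members at least 2-fold higher in RVT than in RVC were 3 of 8, against 23.5% of all genes, and ranged from 2 to 4. Of 422 alternative values of single member ratios, 318 moved by less than the counting interval and 104 by more, and no called ratio changed its direction. The 318 include the other members' values with the DR beta genes summed, a choice that cannot move them. With all UMIs of each cell in place of thinned cells, HLA-DRA cells with CD74 made up 98.2% (S), 95.5% (RV), 60.9% (RVC) and 81.6% (RVT). With at least 1000 genes per cell the RVT share was 64.4%. Depth limits HLA-DRB5, HLA-DRB1 and HLA-DQA1 in RVC and HLA-DRB5 in RVT, which had 0 to 5 UMIs there. The causes were not tested. No paired analysis was possible because each condition has 1 library.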
